A study of Sus scrofa with 2 samples.

Results

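The genes described here build and move the microtubule spindle: kinesin motors (symbols KIF and KIFC), tubulins (TUBA, TUBB, TUBD and TUBE), the gamma-tubulin complex (TUBG), centromere proteins (CENP), centrosomal proteins (CEP with a number), cytoplasmic dynein (DYNC and DYNL), the NDC80 complex (NDC80 and NUF2) and the TACC proteins. Members were all probes whose gene symbol in the platform annotation starts with one of these prefixes, which gave 152 of 43794 probes and 87 of 11938 named genes. By prefix they comprise 32 kinesins, 10 tubulins, 5 genes of the gamma-tubulin complex, 11 centromere proteins, 14 centrosomal proteins, 11 dynein genes, 2 genes of the NDC80 complex and 2 TACC genes. The prefix chose them and no measured value did, though the prefixes were set with earlier results of these data known. It gathers proteins by name, and several of them, such as the cargo kinesins and the dynein of cilia, serve outside the spindle.

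Each spindle is built from tubulin dimers, which motors slide, sort and shorten, while chromosomes are held through kinetochores that form on centromeres. The oocyte of many mammals, the pig included, assembles its meiotic spindle without the centriole pairs that organise the poles in somatic cells, and relies on motors and on gamma-tubulin. The cumulus cells around it have centrosomes, and also send microtubule-filled projections to the oocyte.

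RNA of 2 single cumulus-oocyte complexes (COC), aspirated from follicles of slaughterhouse gilts and named COC7 and COC4 in the labels, was hybridized on the EMPV1 array. Both are labelled as Large White, and no treatment or stage separates them in the sources used here. Array 1 had COC7 in Cy5 and COC4 in Cy3, and array 2 had the dyes exchanged, so the arrays repeat 1 comparison technically and make up 1 replicate. A COC holds 1 oocyte and many cumulus cells, so fewer cells of a type and less RNA per cell cannot be told apart, and neither can the source of a transcript.

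The values are the authors' normalized log2 ratios of the channels. Each gene was given the mean of array 1 and of array 2 with its sign turned, so that a dye effect of the same size on the arrays drops out. Genes with a mean above 0 are described as on the COC7 side, those below 0 as on the COC4 side. This direction is only likely, since it rests only on how the labels order the channels, and if it ran the other way all signs would turn together. The arrays lie at equal distances from their mean, and ± gives that technical spread, which is smaller than the mean wherever both arrays have the same sign. Where a pair of values is given without a mean, the first is array 1 and the other array 2 after turning. With 1 COC on each side no test between the complexes was possible, so all that follows is description. The number of arrays limits the precision, and channel signals were not analysed here, so neither the level of a gene nor its detection can be given, and presence of the labelled cell types could not be checked. A rough scale of error comes from the 320 spots of E1A spike-in RNA, which was added by dye and not by COC. Their contrasts had an SD of 0.14, a median distance from 0 of 0.14 and a largest distance of 0.51. Without turning, the mean of the arrays had an SD of 1.24 over these spots, against 0.20 over member genes. The E1A contrasts thus show how far large dye ratios cancel, and need not match the error of a gene. With a median distance as large as the SD, they may also not be centred on 0. The 153 negative control spots had an SD of 0.10. The 604 dark corner spots, which the paper used to set its detection threshold, had an SD of 0.11 and a largest distance of 0.88.

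Over the 87 genes the contrasts were small. Their median distance from 0 was 0.083, against 0.085 over all named genes and 0.14 over the E1A spots. The median log2 ratio was 0.019 (−0.019 on array 1 and 0.049 on array 2), 53 genes lay above 0 and 34 below, and the SD was 0.19, against a median of 0.0062, 52.0% above 0 and an SD of 0.19 over all 11938 named genes. Just 1 member passed 1.5-fold, the minus-end kinesin gene KIFC1 on the COC7 side, where 1.93% of all named genes passed in either direction. A looser limit of 0.32 on the log2 scale was passed by 8 members (9.20%), against 8.08% of all named genes, and 2-fold by 0 members, against 0.151%. These shares are near those of the array as a whole. On the COC7 side 5 members passed the looser limit, where 4.31% of all named genes did, namely KIFC1, the centromere genes CENPV and CENPW, the spindle pole gene TACC3 and the centriole gene CEP164. On the COC4 side 3 members passed, against 3.78% of all named genes, namely DYNLT3, a dynein light chain, TUBB2A, a beta tubulin, and KIF5B, the conventional kinesin. All 8 had the same sign on both arrays (6.84% of all named genes passed with this condition), while of all 87 members 34 did (39.1%), against 38.7% of all named genes. KIFC1, CENPV, DYNLT3 and TACC3 lay farther from 0 than each of the E1A spots, as did 2.86% of all named genes. No member lay as far from 0 as the farthest dark corner spot, at 0.88.

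**Figure D1:**
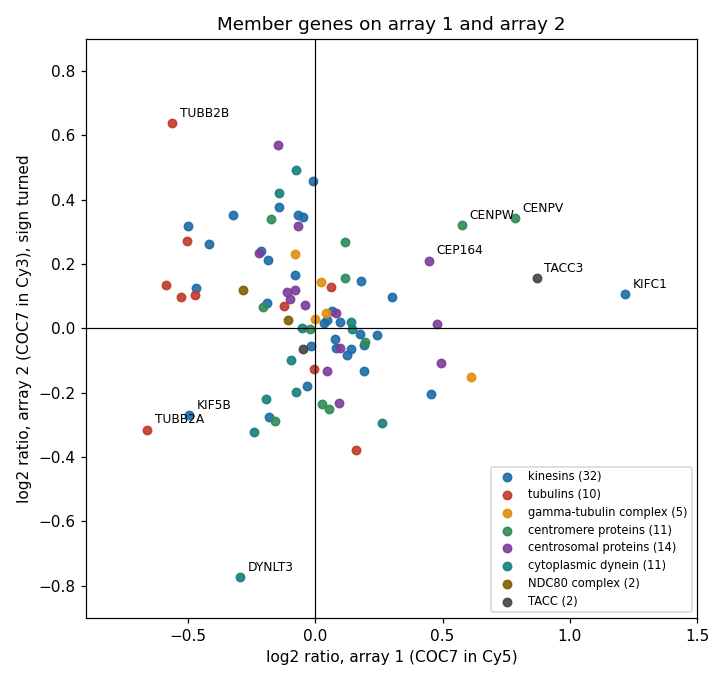
Log2 ratio of the 87 member genes on array 1 (x axis) and on array 2 after its sign was turned (y axis), with a point for each gene and a colour for each prefix group. The labelled genes in the upper right and lower left have the same sign on both arrays. TUBB2B, at −0.56 and 0.64, stands for the many genes with opposite signs on the arrays.

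For most members the arrays differed from each other more than the complexes did. Array 1 alone put 6 members past 1.5-fold (KIFC1, TACC3, CENPV and TUBGCP2 on the COC7 side, TUBB2A and TUBA1B on the COC4 side), against 6.61% of all named genes. Array 2 alone put 2 there (DYNLT3 and TUBB2B), against 4.11%. On each array singly 0 members passed, as 0.41% of all named genes did. Across the 87 genes Pearson's r between array 1 and the turned array 2 was −0.076 and Spearman's rho −0.22, against −0.20 and −0.26 over all named genes. Genes are not independent replicates, and the points share the same RNA pair and slides. The dye part, the mean of the arrays without turning, was larger in size than the contrast in 53 members (61.3% of all named genes). It holds noise of the single arrays as well as any dye effect, and these cannot be told apart for a gene. This dye part passed 0.32 in 11 members (12.6%) against 13.3% of all named genes, and 3 of the 11 were tubulins. Kinesins, centrosomal proteins and tubulins had an r below 0 (−0.24, −0.41 and −0.40), and centromere proteins and dynein had one above 0 (0.48 over 11 genes and 0.24 over 11 genes).

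Among kinesins, motors that walk along or take apart microtubules, 24 of 32 genes lay on the COC7 side. Their median was nevertheless only 0.033, at 0.013 on array 1 and 0.039 on array 2, and 11 of them had the same sign on both arrays, 7 above 0 and 4 below. KIFC1, which slides and bundles microtubules towards the poles, reached 1.22 on array 1 against 0.11 on array 2. Its mean of 0.66 ± 0.56 (1.58-fold) was thus set mainly by array 1, and it rests on 1 probe.

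The kinesins known from dividing cells lay close to 0, apart from KIFC1. KIF11, the motor that pushes spindle poles apart, had 0.047 and 0.025 on array 1 and array 2, a mean of 0.036 ± 0.011. KIF18A, which damps the movements of chromosomes on the spindle, had 0.099 and 0.021. KIF2C, a depolymerase at centromeres, had −0.32 on array 1 and 0.35 on array 2, with a mean of 0.015 ± 0.34. Its signs oppose each other between the arrays, and so do those of KIF23 (−0.14 and 0.38) and KIF20A (−0.18 and 0.21), which act in the midzone during cytokinesis. In all, 10 of these 12 kinesins were above 0 with a median of 0.040, and KIF4A, a chromosome-bound motor, and KIF18B, a depolymerizing kinesin, were below 0 at −0.055 ± 0.14 and −0.035 ± 0.020. KIF14, KIF15, KIF20B and KIF2B ran from 0.023 to 0.080.

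The kinesins that carry cargo held the kinesin contrasts farthest on the COC4 side. KIF5B, the heavy chain of conventional kinesin in most cells, had −0.49 on array 1 and −0.27 on array 2, averaging −0.38 ± 0.11 (1.30-fold). Its 2 probes gave −0.42 and −0.34, each below 0 on both arrays. KIF3A, a subunit of the kinesin-2 motor that builds cilia, had −0.18 and −0.28, a mean of −0.23 ± 0.048. The partner subunits KIF3B and KIF3C were near 0 instead, at 0.027 ± 0.0087 and 0.030 ± 0.16. KIF21B, a motor that also limits microtubule growth, had −0.034 and −0.18. Opposite signs on the arrays were seen for KIF5C (−0.42 and 0.26), the neuronal relative of KIF5B, for KIF13B (−0.47 and 0.13) and, turned round, for KIF1C (0.45 and −0.21). Of the 13 cargo kinesins 5 were below 0 and 8 above, where KIF1A, KIF1B, KIF16B and KIF21A ran from 0.022 to 0.14 and KIFC3 was highest at 0.15 ± 0.20, with a median of 0.027, though the medians of the arrays singly were −0.034 and −0.064.

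Of the 7 other kinesins 6 were above 0, with a median of 0.11. KIF12 had 0.18 and 0.15 on array 1 and array 2, and KIF24, which restrains cilium formation at the mother centriole, had 0.30 and 0.098. Both were above 0 on each array. KIF26B had −0.0099 and 0.46, so its mean of 0.22 ± 0.23 comes from array 2. KIF25, at −0.50 and 0.32, had the largest dye part of the kinesins after KIFC1, and KIF6, KIF19 and KIF27 had means from 0.011 to 0.11 with opposite signs on the arrays.

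**Figure D2:**
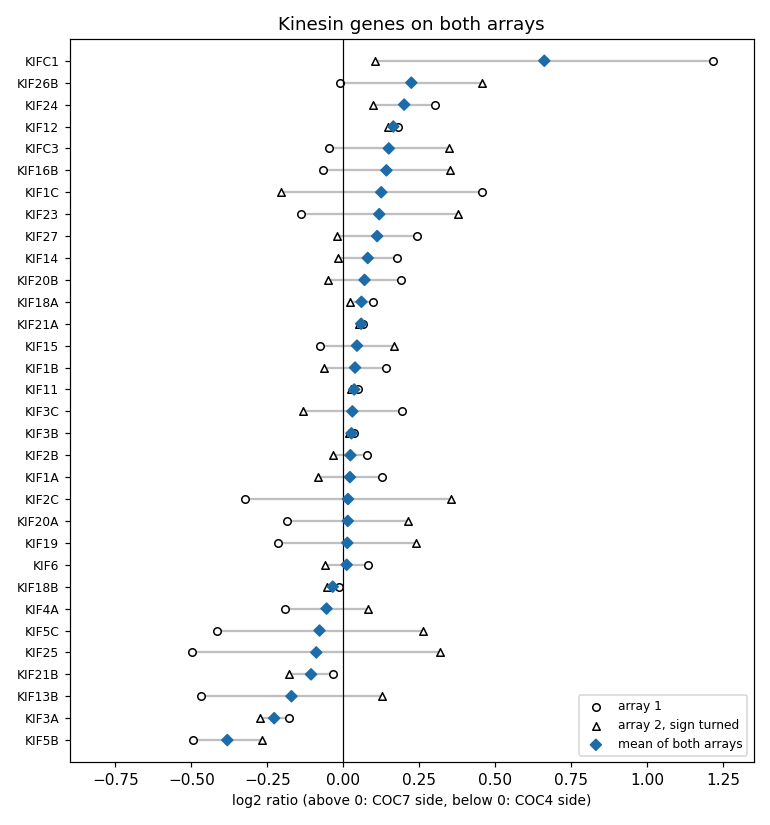
Log2 ratios of the 32 kinesin genes, ordered by the mean of both arrays: circles are array 1, triangles array 2 with its sign turned, diamonds the mean, and the grey bar joins the arrays. KIFC1 at the top has its arrays at 1.22 and 0.11, and KIF5B at the bottom has both below 0.

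Tubulins, the subunits of the microtubule itself, lay on the COC4 side for 8 of 10 genes, with a median of −0.11. That median was −0.49 on array 1 and 0.10 on array 2, so its direction was not shared by the arrays. The dye part had a median of −0.23 in tubulins, against −0.0075 over all named genes, and was below 0 in 8 of 10. TUBB2A had −0.66 on array 1 and −0.31 on array 2, averaging −0.49 ± 0.17 (1.40-fold), and was the tubulin farthest from 0. Its probe carries a transcript accession that the RefSeq table of Sscrofa11.1 gives to TUBB, the common beta tubulin, and TUBB2A itself is not a symbol of that table. TUBB2B, a related beta tubulin, had −0.56 and 0.64, a mean of 0.039 ± 0.60 from probes at −0.75 and 0.55 and at −0.37 and 0.73, which shared this pattern. TUBB1, the beta tubulin of platelets, had 4 probes between −0.084 and 0.048.

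Both common alpha tubulin genes had opposite signs on the arrays as well. TUBA1B had −0.59 on array 1 and 0.13 on array 2, with probes at −0.40 and −0.055. TUBA1A had −0.50 and 0.27, and its 3 probes ran from −0.46 to 0.16, the widest gap of all members with several probes. The probe at 0.16 has an accession that RefSeq now gives to LOC100158003, and without it TUBA1A had −0.47 and −0.039, a mean of −0.25 ± 0.21. These genes neighbour each other on chromosome 5 with 1 protein-coding gene between them in the RefSeq table, and alpha tubulins, as beta tubulins, are alike in sequence. A probe of one may therefore bind transcripts of another, and the values of single tubulin genes are uncertain. TUBA4A was above 0 on both arrays, at 0.060 and 0.13, only as a mean of its probes. These had opposite signs on the arrays, 0.31 and −0.23 against −0.19 and 0.49. TUBA8 and TUBAL3 had −0.11 ± 0.27 and −0.065 ± 0.061. Delta and epsilon tubulin, which belong to centrioles, were alike: TUBD1 had −0.53 and 0.097 and TUBE1 had −0.47 and 0.10, below 0 on array 1 only.

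All 5 genes of the gamma-tubulin complex, the ring from which microtubules grow, had means on the COC7 side, with a median of 0.076. The values were small, and only TUBGCP3 (0.042 and 0.048) and TUBGCP5 (0.023 and 0.14) were above 0 on both arrays. The probes of TUBGCP5 differed, at −0.21 and 0.18 against 0.26 and 0.11. TUBGCP2 was highest, at 0.61 on array 1 and −0.15 on array 2, averaging 0.23 ± 0.38. Its 2 probes had the same order of arrays, 0.94 and −0.25 against 0.29 and −0.057. TUBGCP4 had 3 probes from −0.18 to 0.21 and a mean of 0.014, and TUBGCP6 had 0.076 ± 0.16. TUBG1, gamma tubulin itself, was not analysed here.

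Cytoplasmic dynein, the motor that draws cargo and spindle poles towards microtubule minus ends, had the same sign on both arrays in 7 of 11 genes, of which 6 lay on the COC4 side. Its median was −0.027, and −0.077 and −0.098 on the arrays singly. Among the genes below 0 on both arrays, DYNC1I2 shared a sign only after its probes were averaged. The light chains, which link the motor to its cargo, held the values farthest from 0. DYNLT3, a light chain of the Tctex family, had −0.29 on array 1 and −0.77 on array 2, averaging −0.53 ± 0.24 (1.45-fold). DYNLT1, of the same family, had −0.24 and −0.32, a mean of −0.28 ± 0.042, with probes at −0.29 and −0.27. DYNLRB1, the roadblock light chain, had −0.19 and −0.22, a mean of −0.21 ± 0.013, with probes at −0.31 and −0.098. These 3 genes were below 0 on each array and in each of their probes.

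The light chains of the third family, LC8, had means on the other side but no shared sign. DYNLL1 had −0.14 on array 1 and 0.42 on array 2, and DYNLL2 had −0.077 and 0.49, so both means (0.14 ± 0.28 and 0.21 ± 0.28) come from array 2. The heavy chain that carries the motor activity, DYNC1H1, was near 0 at −0.053 and −0.00035. Among the chains that join it, DYNC1I2, an intermediate chain, had −0.077 and −0.20. Its probes had opposite signs on the arrays, 0.10 and −0.40 against −0.26 and 0.0039. DYNC1I1, the neuronal relative of DYNC1I2, had 0.14 and 0.021, and DYNC1LI1, a light intermediate chain, 0.26 and −0.29. The dynein of cilia had −0.096 ± 0.0024 for its heavy chain gene DYNC2H1 and 0.071 ± 0.072 for DYNC2LI1. These 6 chains all lay within 0.14 of 0.

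Centromere proteins held 2 of the 5 members past the looser limit on the COC7 side, and the group as a whole was split, 6 genes above 0 and 5 below with a median of 0.078. CENPV, a protein of the inner centromere that is needed for chromosome alignment and cytokinesis in human cells, had 0.79 on array 1 and 0.34 on array 2, averaging 0.56 ± 0.22 (1.48-fold). CENPW, which pairs with CENPT in the constitutive network of the centromere, had 0.58 and 0.32, a mean of 0.45 ± 0.13 (1.36-fold). Both genes were above 0 on each array and rest on 1 probe each. CENPV was the 1 member past 0.32 on each array taken alone, as were 2.58% of all named genes, and CENPW came close to it on array 2.

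CENPT itself had 0.12 and 0.16 on the arrays, with probes at 0.10 and 0.18, and CENPA, the histone H3 variant that marks centromeres, had 0.12 and 0.27. Both were thus above 0 on each array by small amounts. On the COC4 side CENPF, a large kinetochore protein of late cell cycle, had −0.16 and −0.29, a mean of −0.22 ± 0.066. The other members of the constitutive network, CENPI, CENPK, CENPL, CENPO and CENPP, ran from −0.10 to 0.083, and CENPL was the one of them with the same sign on both arrays. CENPB, which binds satellite DNA, had −0.099 ± 0.15. Genes of the NDC80 complex, the hold of kinetochores on microtubule ends, were near 0 with opposite signs on the arrays: NDC80 had −0.11 and 0.027, and NUF2 −0.28 and 0.12. CENPE, the kinesin of kinetochores, was not analysed here.

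Centrosomal proteins lay above 0 for 11 of 14 genes, but with a median of only 0.019 and the same sign on both arrays for 3 genes. CEP164, a protein of the distal appendages by which the mother centriole docks to the membrane, had 0.45 on array 1 and 0.21 on array 2, averaging 0.33 ± 0.12 (1.26-fold). Of its 4 probes, 3 gave means of 0.36, 0.41 and 0.50, and these were above 0 on both arrays. The remaining probe gave 0.046, from −0.14 and 0.23. CEP55, which organises the abscission of daughter cells, had 0.48 and 0.013, and CEP120, of centriole assembly, had 0.084 and 0.049.

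The other 11 centrosomal genes had opposite signs on the arrays. CEP78 had 3 probes at 0.43 to 0.53 on array 1 and −0.23 to −0.042 on array 2, so its probes were alike on each array while the arrays had opposite signs. CEP350 had −0.15 and 0.57, a mean of 0.21 ± 0.36 with the largest dye part of the group, and CEP192, a scaffold that recruits pericentriolar material, had −0.068 and 0.32. CEP250, the linker between centrioles, was covered by 7 probes, the most of all members, with means from −0.12 to 0.20 around 0.019. CEP152, of centriole duplication, had 4 probes from −0.19 to 0.079. CEP63, CEP68, CEP76, CEP97, CEP128 and CEP135 lay between −0.068 and 0.019.

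Of the TACC proteins, which stabilise microtubules at spindle poles with their partner CKAP5, TACC3 lay on the COC7 side and TACC1 near 0. TACC3 had 0.87 on array 1 and 0.16 on array 2, averaging 0.51 ± 0.36 (1.43-fold). The size differed between its probes, which gave 0.42 and 0.29 in one case and 1.32 and 0.027 in the other, all above 0. TACC1 had −0.049 and −0.064.

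**Figure D3:**
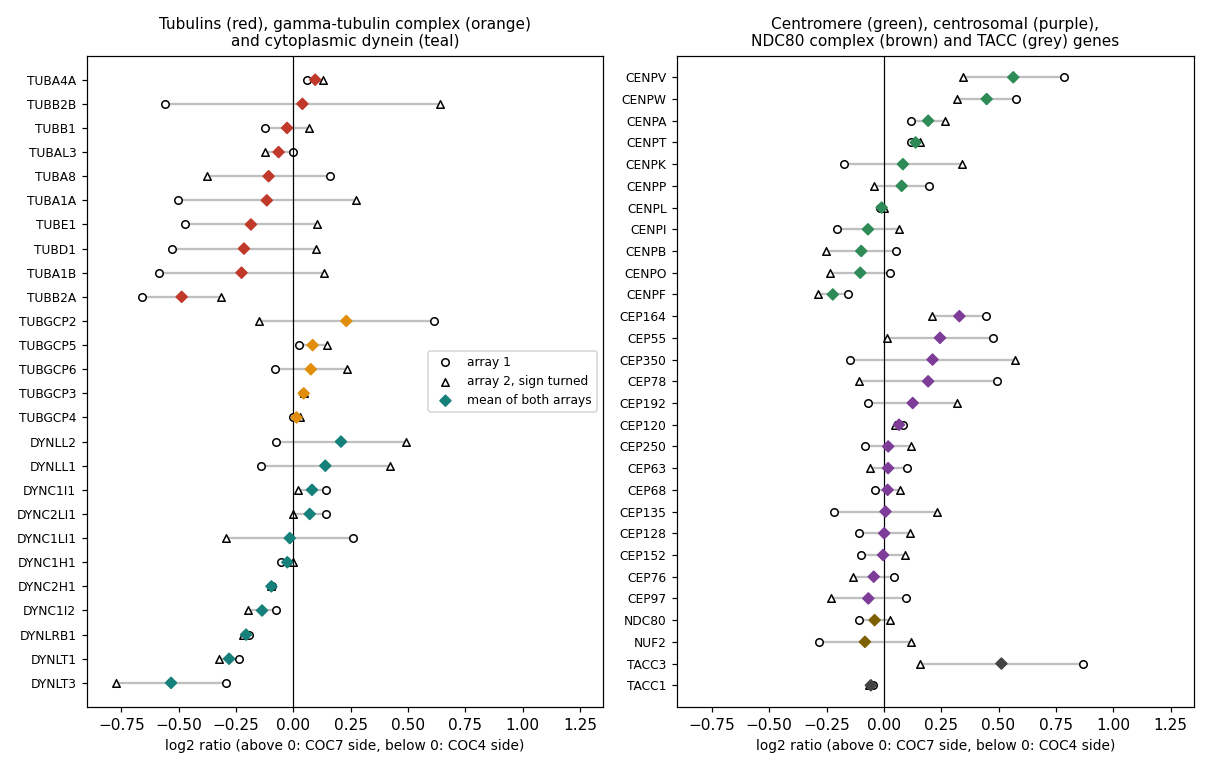
Log2 ratios of the remaining 55 member genes by prefix group, with circles for array 1, triangles for array 2 after its sign was turned, diamonds for the mean and a grey bar between the arrays. The dynein light chains DYNLT1, DYNLT3 and DYNLRB1 have both arrays below 0, CENPV and CENPW have both above 0, and most tubulins have array 1 below and array 2 above 0.

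Several probes for a symbol give a further view of the error. Of 36 members with several probes (101 probes), 17 had all probe means on the same side, 10 above 0 and 7 below, and 19 had probes on both sides. Within a symbol the probe means had an SD of 0.14, and the averages of the symbols over their probes had an SD of 0.16. Averaging over probes narrows the latter, so these SDs cannot be compared directly. As probes, 2 of the 152 passed 1.5-fold, that of KIFC1 and 1 of TACC3, against 2.17% of the named probes. Just 4 members had all probes on the same side on both arrays: TACC3, KIF5B, DYNLT1 and DYNLRB1. The matching shares over all named genes with several probes were not computed, so these counts cannot be set against the array as a whole. KIFC1, CENPV, CENPW, DYNLT3 and TUBB2A, with 1 probe each, could not be set against a second probe.

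**Figure D4:**
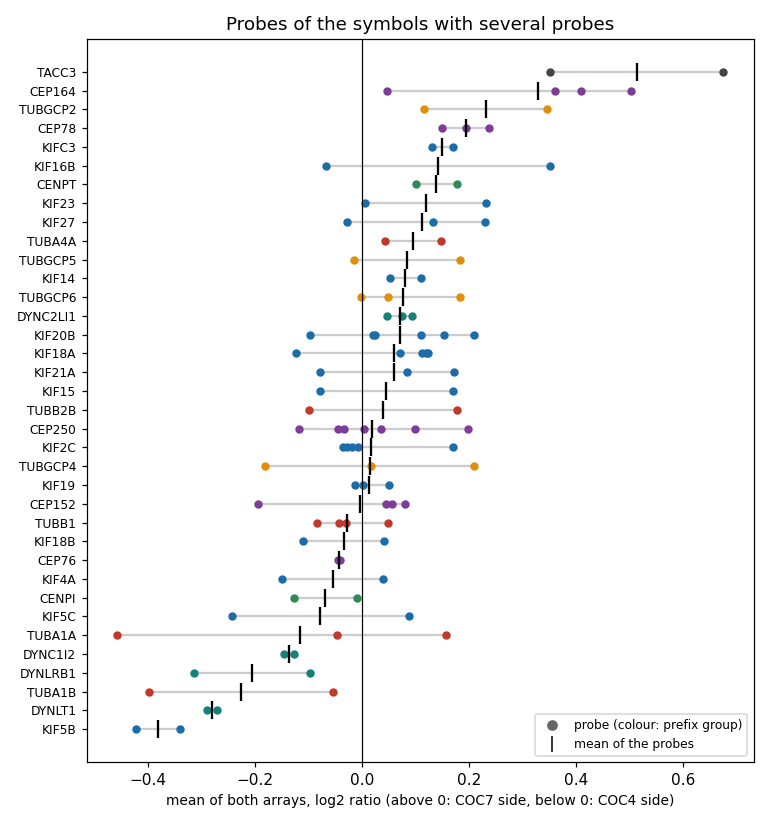
Mean log2 ratio of both arrays for each probe (points, coloured by prefix group) of the 36 member symbols with several probes, ordered by the mean of the symbol (black bar). The probes of TACC3 and KIF5B lie apart from 0 at opposite ends, and those of TUBA1A span from −0.46 to 0.16.

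Other genes of the spindle were taken from lists chosen with earlier results of these data known. Of these lists, mitotic kinases and the chromosomal passenger complex lay farthest on the COC7 side. They had 6 of 8 genes above 0 and a median of 0.18 (0.053 on array 1 and 0.15 on array 2). GSG2, the kinase haspin that marks centromeric histone H3, had 0.27 and 0.65 on the arrays, and AURKA, a kinase of spindle poles, −0.093 and 0.95. Kinetochore and spindle checkpoint genes had 12 of 15 above 0 and a median of 0.046, but the median was −0.048 on array 1 and 0.14 on array 2, and 3 of the 15 had the same sign on both. Farthest from 0 were OIP5, which loads CENPA, at 0.25 ± 0.14 and MAD2L2, a relative of the checkpoint protein MAD2, at 0.19 ± 0.079. Genes listed for proteins of spindle microtubules and their regulators had 18 of 27 above 0 and a median of 0.056. The farthest of them lay the other way: STMN1, stathmin, which binds free tubulin dimers, had −0.66 and −0.49, a mean of −0.57 ± 0.086. Next came GTSE1, a protein of microtubule tips, on the COC7 side at 0.42 and 0.35. No gene of these lists passed 1.5-fold, where 1.93% of all named genes did, a share that leaves few to be found in lists of this size.

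Tubulin folding and modification genes had 13 of 20 below 0 and a median of −0.048 (−0.099 on array 1 and −0.026 on array 2). The median of the tubulins was on this side on array 1 only, at −0.49, and was 0.10 on array 2. TBCA, a chaperone of beta tubulin, had −0.55 and −0.28, a mean of −0.42 ± 0.14, whereas TBCB, a chaperone of alpha tubulin, had 0.59 and 0.080. Kinesin light chains and partners had 3 of 4 below 0, with KIFAP3, the adaptor of the kinesin-2 motor, at −0.36 and −0.15, beside KIF3A on the same side, and KLC4, a light chain, at −0.046 ± 0.13. Dynactin and dynein adaptors had 7 of 13 above 0 and a median of 0.023 (−0.038 on array 1 and 0.073 on array 2), led by NDEL1, which activates dynein, at 0.56 and 0.25, and ACTR1B, of the dynactin filament, at 0.17 ± 0.24. Other centrosome and centriole genes had 9 of 15 above 0 and a median of 0.060 (0.10 on array 1 and −0.027 on array 2), with CETN3, a centrin, at −0.32 ± 0.31 and CNTROB, centrobin, at 0.30 ± 0.24.

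Markers of the cells in a COC stood on both sides. Oocyte markers (11 of 14 measured) had 8 of 11 above 0, with a median of 0.15 (−0.13 on array 1 and 0.54 on array 2), and cumulus and granulosa markers (11 of 16 measured) had 9 of 11 below 0, with a median of −0.16 (−0.35 and −0.023). Genes of dividing cells (7 of 16 measured) were above 0 in 7 of 7, with a median of 0.14. That median was yet −0.12 on array 1 and 0.29 on array 2, and 1 of the 7 genes had the same sign on both. Blood and immune markers (4 of 8 measured) had a median of 0.025 (0.11 on array 1 and −0.062 on array 2). For theca and stroma markers (9 of 10 measured) it was −0.0092 (−0.10 and 0.083). The part of these cell types in the contrasts of KIFC1, TACC3, CENPV, CENPW, the dynein light chains and KIF5B was not tested.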

How the data were processed

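Arrays were made by the authors from amplified RNA of 2 COCs, labelled with Cy3 and Cy5 in a dye swap, and scanned. GenePix Pro subtracted the background, normalization ran within arrays and then between them, and limma was run in FlexArray. How the values were normalized or centred, and which channel was divided by which, is not given in the sources used here. The deposited values are log2 ratios. The base was read from the 2-fold lines of the paper's plot, and Cy5 was taken as the numerator because the labels list the channels in an order that fits it. The 43794 probes had equal values in both deposited tables, 1 of which adds 1426 control spots. The columns of that table were tied to the arrays by these equal values, and the control spots were used only for spreads that do not depend on which array is which.

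The platform annotation pairs 18121 probes with 1 gene symbol and 0 with several, and 25673 are unnamed here. Probes were averaged per symbol. Member probes with an accession numbered 42, of which 26 were found among the accessions of RefSeq's Sscrofa11.1 table and 24 had the same symbol there. Genes were counted past 1.5-fold, 2-fold and a log2 ratio of 0.32 without a test, since the spread between COCs cannot be estimated from 1 of each. The members and lists were chosen with earlier results of these data known, and the kinesin, tubulin, centromere and dynein subgroups and the probe-level comparisons were added after the values were seen. Every member was to be accounted for; of the related lists, the 2 members farthest from 0 are named. Alternatives were each array alone, centring, scaling, removing the median of runs of 500 spots, probes in place of genes, the median of probes, other folds, a joint tubulin group, the full table and symbols with several probes only. The calculation was run on simulated data with planted contrasts larger than that of any member and an equal dye effect on both arrays. That run checked the arithmetic and does not show how well contrasts of the size seen here are recovered. No sequences of the members were at hand, so none are shown. Calculations were run in Python 3.11.15 with pandas 2.3.3, numpy 2.4.6 and, for correlations, scipy 1.17.1, and plots were drawn in matplotlib 3.10.9.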

Additional observations from a re-analysis of the deposited data

How the results depend on the processing

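The 8 members past 0.32 kept their side under centring, scaling and removal of the median of runs of spots, where CEP164 went to 0.30 and fell just short of it. Among all 87 members, 0 changed side after centring, 1 after scaling, 4 after removal of the runs and 2 with the median of the probes, all of them within 0.070 of 0. The count past 1.5-fold was 1, and 0 at 2-fold, 8 at a log2 ratio of 0.32, 0 with 1.5-fold on each array, 6 on array 1 alone, 2 on array 2 alone and 2 as probes.

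The medians of the prefix groups depended mostly on the array. Array 1 alone gave 0.013 for kinesins, −0.49 for tubulins, 0.023 for the gamma-tubulin complex, 0.054 for centromere proteins and −0.077 for dynein. Array 2 alone gave 0.048 for the gamma-tubulin complex, 0.067 for centromere proteins, 0.083 for centrosomal proteins, −0.098 for dynein and 0.046 for TACC. Scaling gave 0.069 for centromere proteins, and removal of the runs gave 0.085 for them and 0.059 for the gamma-tubulin complex. As probes, the gamma-tubulin complex had 0.047 and dynein −0.061. With several probes only, an alternative chosen after the data were seen, kinesins had 0.059, centromere proteins 0.034, dynein −0.17 and TACC 0.51. Array 1 alone gave 0.053 for mitotic kinases, −0.038 for dynactin, −0.099 for tubulin folding and −0.25 for kinesin light chains. Array 2 alone gave 0.14 for kinetochore genes, whose median turned to −0.048 on array 1. On array 2 alone the list of spindle microtubule proteins and regulators had 0.10, and other centrosome genes had −0.027. The cause was not tested, and an array alone does not balance the dye. Each array already sets the COCs against each other as a pair, and the arrays repeat that same pair, so no paired test was possible. The results come from no test. Signal over background was not analysed here.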
